A study of Mus musculus with 12 samples.

Results

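A set of 10 circadian clock genes was followed gene by gene through 12 mouse tumors: Nr1d1, Nr1d2, Per1, Per2, Per3, Dbp, Tef, Arntl, Npas2 and Cry1. These 10 were picked by symbol out of the 34678 gene symbols measured, and they were divided into 7 repressor and output genes (Nr1d1, Nr1d2, the 3 Per genes, Dbp and Tef) and 3 others (Arntl, Npas2 and Cry1). Their levels in the 4 treatment arms were known when the genes were picked, so the differences between arms are given as values with standard errors and without a test.

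The tumors grew under the skin of C57BL/6 mice, which were 5 to 8 weeks old when purchased. They grew from LLC1-shLkb1 cells, a Lewis lung carcinoma line in which a short hairpin lowers Lkb1 (Stk11), the kinase and lung tumor suppressor. Each of the 4 arms held 3 tumors. Vehicle mice received a control immunoglobulin (clone 2A3), palbociclib mice the CDK4/6 inhibitor palbociclib by mouth, anti-PD-1 mice an antibody against the T cell checkpoint receptor PD-1 (clone RMP1-14) by injection into the abdomen, and combination mice both agents. The knockdown was shared by every arm, so no tumor without it served as a reference, and Stk11 ranged from 7.90 to 11.5 FPKM (fragments scaled to the length of the gene and to the mapped fragments of the library). The hour of day at which tumors were collected is not given in the sources used here.

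In the mammalian clock, ARNTL (also called BMAL1) pairs with CLOCK or its relative NPAS2 and switches on genes that carry an E-box in their control regions. Among these are the Per and Cry genes, whose proteins shut ARNTL down again, and Nr1d1 and Nr1d2, nuclear receptors (REV-ERB alpha and beta) that bind RORE sites and silence Arntl and Npas2. Dbp and Tef encode PAR bZIP factors, which carry the rhythm to output genes through D-boxes. In tissues with a running clock, Arntl and Npas2 peak at about the opposite time of day from Nr1d1, Dbp and the Per genes, and Cry1 peaks later than the Per genes.

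The E-box, D-box and RORE named above, and in addition the CRE core, were searched for in the RefSeq promoter windows of GRCm38.p6. These run from 250 bases before to 50 after each start site, and both strands were searched. Windows were at hand for 9 of the 10 genes (12 windows, Per2 unmatched), and 7 windows held at least 1 of 4 motifs. Among all 32851 windows, the E-box CACGTG was present in 7.15%, the D-box TTATGTAA in 0.938%, the RORE (TAGGTCA or TGGGTCA) in 6.45% and the CRE core TGACGTC in 3.21%. No match overlapped another. The stretches that hold them are shown 5′ to 3′ on the strand of the gene with the motif in capitals, since Per3, Per1, Tef and Cry1 are genes whose levels are set side by side below. The Per3 stretch (chr4:151044666-151044915, minus strand) holds a D-box at 205 and another at 158 bases before the start, Cry1 (chr10:85185065-85185304, minus strand) an E-box 60 bases before it, and Per1 an E-box 166 bases before one start (chr11:69098699-69098947, plus strand) and a CRE core 132 bases before another (chr11:69099902-69100151, plus strand). Tef holds an E-box before each of its RefSeq starts, at 138 bases (chr15:81811164-81811413, plus strand) and at 127 bases (30 bases shown, chr15:81802534-81802563, plus strand). Both lie downstream of the outermost start of Tef in GENCODE M21. Arntl holds a RORE 30 bases after one start (30 bases shown, chr7:113207530-113207559, plus strand). A match of letters is a description of these windows, and the windows of Nr1d1, Nr1d2, Dbp and Npas2 held none of the 4.
Per3 upstream: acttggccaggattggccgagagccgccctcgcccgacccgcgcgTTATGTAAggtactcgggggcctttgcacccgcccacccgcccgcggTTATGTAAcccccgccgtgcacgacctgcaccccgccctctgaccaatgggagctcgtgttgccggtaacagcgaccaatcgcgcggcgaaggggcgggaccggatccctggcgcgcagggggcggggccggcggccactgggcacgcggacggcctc
Cry1 upstream: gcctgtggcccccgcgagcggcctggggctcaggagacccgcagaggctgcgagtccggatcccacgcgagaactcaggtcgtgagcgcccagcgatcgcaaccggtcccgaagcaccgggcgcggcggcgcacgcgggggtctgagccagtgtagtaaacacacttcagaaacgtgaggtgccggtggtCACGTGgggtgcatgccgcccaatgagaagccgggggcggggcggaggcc
Per1 upstream, E-box: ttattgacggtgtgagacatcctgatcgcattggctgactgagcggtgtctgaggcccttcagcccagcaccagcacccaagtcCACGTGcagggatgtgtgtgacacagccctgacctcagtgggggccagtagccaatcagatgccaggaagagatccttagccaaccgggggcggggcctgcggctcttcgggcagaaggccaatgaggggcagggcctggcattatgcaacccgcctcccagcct
Per1 upstream, CRE core: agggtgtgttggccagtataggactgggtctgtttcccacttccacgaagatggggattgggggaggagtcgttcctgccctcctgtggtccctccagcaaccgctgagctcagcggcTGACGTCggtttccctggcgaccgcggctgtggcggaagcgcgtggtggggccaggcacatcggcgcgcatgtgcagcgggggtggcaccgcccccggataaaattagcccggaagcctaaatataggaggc
Tef upstream: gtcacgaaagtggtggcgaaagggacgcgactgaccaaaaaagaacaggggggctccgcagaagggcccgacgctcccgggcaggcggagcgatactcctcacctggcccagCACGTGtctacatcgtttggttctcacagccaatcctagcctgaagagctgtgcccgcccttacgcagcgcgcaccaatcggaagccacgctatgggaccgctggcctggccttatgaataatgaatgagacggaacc
Tef, 30 bases: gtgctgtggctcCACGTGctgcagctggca
Arntl, 30 bases: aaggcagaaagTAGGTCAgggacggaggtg

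Sequencing depth, inferred from the steps between low FPKM values, was 14900000 to 20300000 fragments per tumor, and 9 of the 10 genes passed the filter of a mean of at least 0.1 FPKM (15350 genes did in all). Lung lineage markers were partly missing: 3 of 8 (Nkx2-1, Sftpc and Sftpa1) were at 0 in every tumor. The summed level of 8 adipocyte markers was 2.23 to 5.02 FPKM in vehicle, 17.6 to 409 in palbociclib, 1.44 to 5.35 in anti-PD-1 and 2.25 to 996 in combination tumors, with every marker of the list above 0 in some tumor. Skin markers reached 386 FPKM in palbociclib replicate 2, and muscle markers 191 in palbociclib replicate 3, 177 in combination replicate 2, 65.8 in vehicle replicate 1 and 12 in anti-PD-1 replicate 1, against 0.745 to 1.26 in the other vehicle and anti-PD-1 tumors. Leukocyte and proliferation markers were also listed, 8 and 6 genes, and none was called against vehicle in any arm. Their median log2 differences in palbociclib, anti-PD-1 and combination tumors were 0.728, -0.0285 and 0.496 for leukocytes and 0.328, 0.231 and 0.434 for proliferation. All 6 proliferation genes were above 0 in each arm. In the same order, 2, 1 and 5 of these 6 and 4, 0 and 3 of the 8 leukocyte genes had an unadjusted limma p under 0.05. Over all genes the shares were 13.8%, 8.4% and 17.0%. The median of 5 endothelial markers was -0.52, 0.248 and -0.319, with none called. Summed over the list, leukocyte markers ran from 52.6 to 102 FPKM in vehicle and from 110 to 148 in palbociclib tumors, and endothelial markers from 14.3 to 29.7 and from 12.6 to 14.9. The part of these tissues and cells in the levels below was not tested beyond a fit that held the adipocyte, muscle and skin markers as covariates. In bulk tumors, fewer cells that express a gene and less RNA per cell cannot be told apart.

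The 7 repressor and output genes were lower in all 3 treated arms than in vehicle, anti-PD-1 alone included. Their median difference from vehicle in log2(FPKM + 0.1) was -1.06 in palbociclib, -0.949 in anti-PD-1 and -1.41 in combination tumors, while the median over all genes tested was 0.0677, -0.0333 and 0.0297. All 7 differences were negative in each arm. These 3 comparisons use the same 3 vehicle tumors, so their likeness is not independent evidence. Arntl, by contrast, lay at 98.6%, 129% and 109% of its vehicle mean in the same order of arms, and Cry1 lay at 85.6%, 64.5% and 72.8%.

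**Figure D1:**
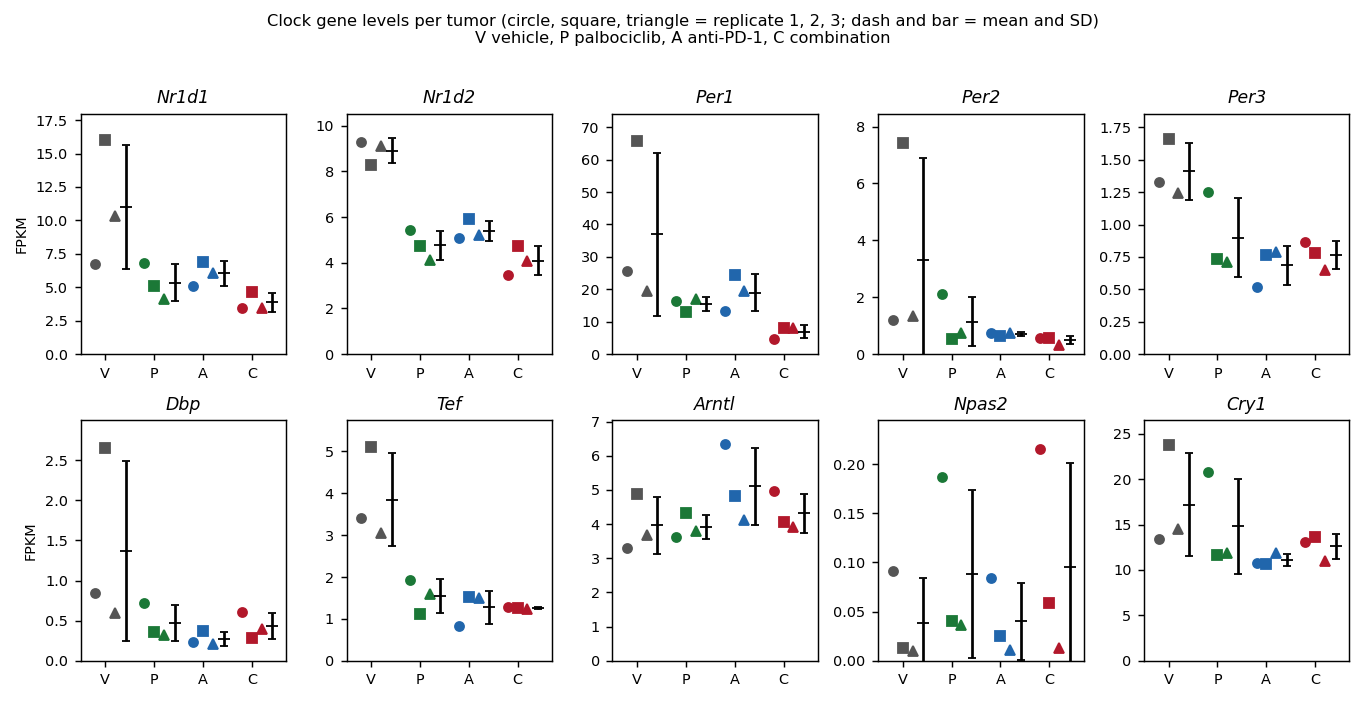
Levels in FPKM (vertical axes, linear from 0) of the 10 clock genes in every tumor, with 1 symbol per replicate and the mean and SD of each arm beside the points (lower ends of some bars are cut at 0). Nr1d2 and Tef are the 2 genes whose 3 vehicle tumors lie above all 9 treated tumors, and vehicle replicate 2 (square) is the highest of the 12 tumors for 7 genes.

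Genes were also counted by whether all tumors of an arm lay on one side of all vehicle tumors. In palbociclib tumors, 3 of the 9 genes above the filter lay wholly below vehicle (Nr1d2, Per1 and Tef), against 6.47% of all genes. In anti-PD-1 tumors there were 6 (Nr1d2, Per2, Per3, Dbp, Tef and Cry1), against 7.09%, and in combination tumors 6 (Nr1d1, Nr1d2, Per1, Per2, Per3 and Tef), against 11.6%. Against all 9 treated tumors at once there were 2, Nr1d2 and Tef, where 1.43% of all genes did so. None of the 9 lay wholly above vehicle in any arm, which 12.9%, 4.25% and 10.8% of all genes did. The genes were picked with these arms in view, so nothing is read from the counts.

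Nr1d2 (chromosome 14, 18204054 to 18239127, minus strand, GENCODE M21 on GRCm38) encodes REV-ERB beta, a repressor without an activation domain. It stood at 9.29, 8.29 and 9.13 FPKM in vehicle tumors, 5.43, 4.73 and 4.12 in palbociclib, 5.09, 5.90 and 5.21 in anti-PD-1 and 3.47, 4.75 and 4.08 in combination tumors. Vehicle tumors were the 3 highest of the 12, with a gap down to the anti-PD-1 tumors, whereas neighbors further down (anti-PD-1 and palbociclib, palbociclib and combination) overlapped. The difference from vehicle was -0.90, -0.71 and -1.11 (SE 0.138 for each) in palbociclib, anti-PD-1 and combination tumors on the log2(FPKM + 0.1) scale. Of the 7 genes it had the smallest spread among vehicle tumors in proportion to its mean (SD 0.538 around 8.91 FPKM).

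Nr1d1 (chromosome 11, 98767932 to 98775333, minus strand) encodes REV-ERB alpha, the close relative of REV-ERB beta. Vehicle tumors had 6.73, 16.0 and 10.3 FPKM, palbociclib tumors 6.85, 5.09 and 4.10, anti-PD-1 tumors 5.07, 6.91 and 6.10 and combination tumors 3.48, 4.68 and 3.47. The 3 combination tumors lay below all vehicle and all anti-PD-1 tumors, whereas vehicle replicate 1 lay among the palbociclib and anti-PD-1 tumors. Differences from vehicle were -0.97, -0.78 and -1.41 (SE 0.285 for each). The gene shares 263 exonic bases (8.55% of its exonic length) with Thra on the opposite strand, and whether counting used the strand is not given in the sources used here. Thra, the thyroid hormone receptor alpha gene, had means of 8.37 ± 3.04, 6.56 ± 0.824, 7.53 ± 0.359 and 4.69 ± 0.390 FPKM (SD, n = 3) in vehicle, palbociclib, anti-PD-1 and combination tumors.

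Per1 (chromosome 11, 69095217 to 69109960, plus strand) encodes a PERIOD protein, which together with CRY proteins blocks ARNTL, and had the highest level of the 10 genes per length (mean 19.6 FPKM over the 12 tumors). Its values were 25.6, 65.6 and 19.6 FPKM in vehicle, 16.4, 12.9 and 17.0 in palbociclib, 13.2, 24.4 and 19.4 in anti-PD-1 and 4.72, 7.95 and 8.17 in combination tumors. The combination tumors were the 3 lowest of the 12 and overlapped no other arm, which made Per1 the single gene of the 9 to lie wholly below palbociclib alone (9.15% of all genes did so). The difference from vehicle was -1.06, -0.79 and -2.23 (SE 0.398 for each). Combination tumors stood 1.17 log2 units below palbociclib tumors (log2 difference -1.17) and 1.44 below anti-PD-1 tumors (-1.44). With adipocyte, muscle and skin markers as covariates, the palbociclib effect of Per1, which is the mean of palbociclib minus vehicle and combination minus anti-PD-1, went from -1.25 to -0.513. That of Cry1 went from -0.03 to 0.073 with the same covariates. Over all alternative fits described below, the palbociclib effect ran from -1.43 to -0.513 for Per1 and from -0.954 to -0.458 for Nr1d1. It ran from -0.754 to -0.312 for Tef, from -1.1 to -0.418 for Per2 and from -0.542 to -0.0465 for Dbp. For Nr1d2 the range was -0.72 to -0.56 and for Per3 -0.383 to -0.143. These ranges cover every alternative, so they do not show what the covariates did to genes other than Per1 and Cry1.

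Per2 (chromosome 1, 91415982 to 91459324, minus strand), a second PERIOD gene, was present at 1.19, 7.44 and 1.33 FPKM in vehicle, 2.13, 0.546 and 0.735 in palbociclib, 0.743, 0.622 and 0.731 in anti-PD-1 and 0.549, 0.572 and 0.324 in combination tumors. One tumor in each of the vehicle and palbociclib arms stood far above its fellows. All anti-PD-1 and combination tumors lay below all vehicle tumors, and palbociclib replicate 1 lay above 2 of the 3 vehicle tumors. Differences from vehicle were -1.18, -1.59 and -2.08 (SE 0.625 for each), the least precise of the 9 genes.

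Per3 (chromosome 4, 151003652 to 151044665, minus strand), the PERIOD gene that is least needed for the rhythm itself, had 1.33, 1.66 and 1.24 FPKM in vehicle, 1.25, 0.736 and 0.708 in palbociclib, 0.514, 0.762 and 0.786 in anti-PD-1 and 0.865, 0.784 and 0.651 in combination tumors. Only palbociclib replicate 1 reached the vehicle range among the 9 treated tumors. Differences from vehicle were -0.63, -0.95 and -0.80 (SE 0.242 for each).

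Tef (chromosome 15, 81802421 to 81826863, plus strand) encodes thyrotroph embryonic factor, a D-box binding activator. It had 3.40, 5.10 and 3.06 FPKM in vehicle, 1.92, 1.11 and 1.60 in palbociclib, 0.823, 1.53 and 1.5 in anti-PD-1 and 1.29, 1.26 and 1.23 in combination tumors. The lowest vehicle tumor stood above the highest treated tumor, and the 3 treated arms overlapped one another. Differences were -1.26, -1.53 and -1.50 (SE 0.270 for each). An antisense gene, Gm17597, shares 193 exonic bases (2.45%) with Tef.

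Dbp (chromosome 7, 45705088 to 45710203, plus strand), the D-box activator whose rhythm is among the strongest in many tissues, was low in these tumors. It had 0.846, 2.65 and 0.597 FPKM in vehicle, 0.722, 0.361 and 0.324 in palbociclib, 0.228, 0.377 and 0.214 in anti-PD-1 and 0.607, 0.289 and 0.392 in combination tumors. The anti-PD-1 tumors lay below every vehicle tumor, and 1 tumor each of the palbociclib and combination arms reached into the vehicle range. Differences from vehicle were -1.17, -1.74 and -1.25 (SE 0.476 for each). These values rest on an estimated 12 to 123 fragments per tumor, median 19. Sphk2, on the opposite strand, shares 539 exonic bases with Dbp (18.01% of its exonic length), and its means were 3.43 ± 0.804, 4.30 ± 0.226, 3.67 ± 0.501 and 4.0 ± 0.792 FPKM (SD, n = 3) in vehicle, palbociclib, anti-PD-1 and combination tumors.

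Arntl (chromosome 7, 113207465 to 113314126, plus strand), the activator at the head of the loop, had 3.31, 4.89 and 3.68 FPKM in vehicle, 3.61, 4.31 and 3.80 in palbociclib, 6.35, 4.83 and 4.13 in anti-PD-1 and 4.97, 4.05 and 3.91 in combination tumors. All 4 arms overlapped. Differences from vehicle were -0.00, 0.35 and 0.13 (SE 0.185 for each). Its spread over the 12 tumors, 3.31 to 6.35 FPKM, was narrower in proportion than that of any of the 7 repressor and output genes. An antisense gene, Gm45355, shares 33 of its exonic bases.

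Cry1 (chromosome 10, 85131700 to 85185064, minus strand) encodes the cryptochrome that represses ARNTL with the PERIOD proteins. Its level was 13.4, 23.8 and 14.5 FPKM in vehicle, 20.8, 11.6 and 11.9 in palbociclib, 10.8, 10.7 and 11.9 in anti-PD-1 and 13.1, 13.6 and 11.0 in combination tumors. The anti-PD-1 tumors lay below all vehicle tumors, and the other treated arms overlapped vehicle. Differences from vehicle were -0.23, -0.58 and -0.41 (SE 0.245 for each). Without vehicle replicate 2, which is taken up below, they were 0.03, -0.33 and -0.16.

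Npas2 (chromosome 1, 39193731 to 39363236, plus strand), which can stand in for CLOCK as the partner of ARNTL, was near 0 throughout. Its values were 0.0915, 0.0131 and 0.00999 FPKM in vehicle, 0.187, 0.0408 and 0.0367 in palbociclib, 0.0846, 0.0248 and 0.0109 in anti-PD-1 and 0.215, 0.0590 and 0.0125 in combination tumors. Replicate 1 was the highest tumor of each arm. An estimated 62 fragments over the 12 tumors, 1 to 17 in each, stand behind these values, so the gene was left out of the fit and a difference between arms was not detectable at this depth.

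**Figure D2:**
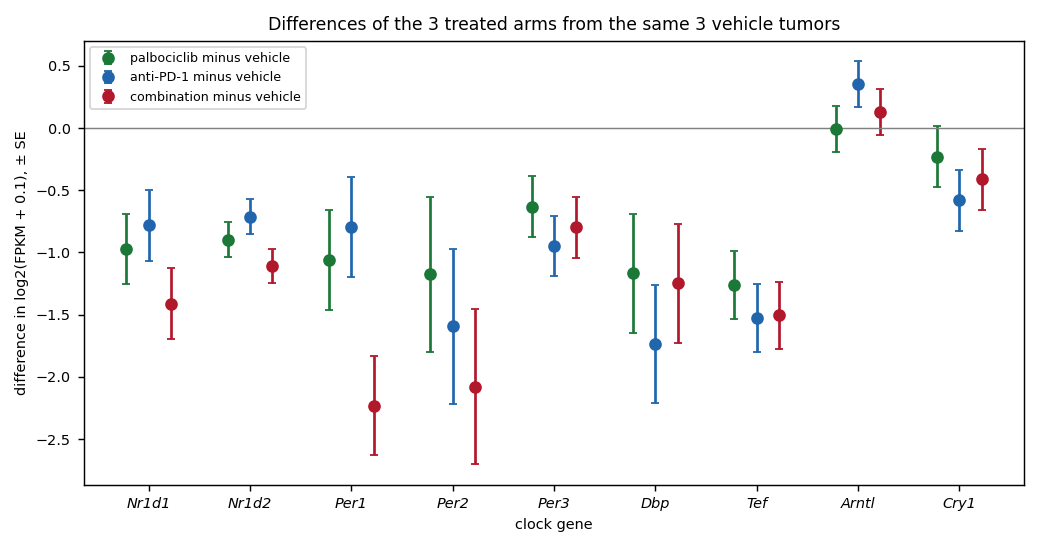
Differences in log2(FPKM + 0.1) of palbociclib, anti-PD-1 and combination tumors from vehicle (vertical axis, mean ± SE from 1 fit over 12 tumors) for the 9 clock genes above the filter. The 3 points of each of the 7 genes on the left lie below 0, from -0.63 for Per3 to -2.23 for Per1, and those of Arntl lie between -0.00 and 0.35.

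Adding palbociclib to the antibody gave a mixed picture within the 7. Combination tumors lay wholly below anti-PD-1 tumors in Nr1d1, Nr1d2, Per1 and Per2, against 7.49% of all genes, with log2 differences of -0.63, -0.40, -1.44 and -0.48. Per3, Dbp and Tef had differences of 0.15, 0.49 and 0.02. The difference made by palbociclib was less negative with the antibody than without it in 6 of the 7, with a median interaction of 0.693 (log2), and Per1 was the exception with -0.38 (SE 0.562). Without vehicle replicate 2 the interaction was positive in 5 of the 7 with a median of 0.549, Per2 turning from 0.69 to -0.13, Nr1d1 going from 0.34 to 0.03 and Per1 from -0.38 to -0.89. Averaged over both settings, the palbociclib effect had a median of -0.647 over the 7 genes and -0.0723 over Arntl and Cry1, beside 0.0552 over all genes.

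One vehicle tumor, replicate 2, stood apart in several of the genes. It was the highest of the 12 tumors in 7 of the 10 genes (Nr1d1, Per1, Per2, Per3, Dbp, Tef and Cry1), as it was in 18.4% of all genes tested. Its level was 5.91 times the mean of the other vehicle tumors for Per2, 3.68 times for Dbp, 2.90 times for Per1 and 1.87 times for Nr1d1, but 0.900 times for Nr1d2. Over all genes this ratio had a median of 0.967 and was above 2 in 4.40%. Genes known to be induced by glucocorticoids, the adrenal steroids that follow the day and stress, were high in the same tumor: Fkbp5 stood at 50.9 FPKM there and at 13.3 and 7.57 in the other vehicle tumors, and Tsc22d3 at 37.8 against 11.5 and 5.15.

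Without that tumor all 7 genes remained lower in each treated arm, with medians of -0.580 in palbociclib, -0.769 in anti-PD-1 and -1.16 in combination tumors. The mean of the 3 treated arms minus vehicle, a contrast added after the values were seen, had a median of -1.36 over the 7 with it and -0.796 without it. Nr1d2 went from -0.91 to -0.96, Tef from -1.43 to -1.22, Per1 from -1.36 to -0.85, Per2 from -1.62 to -0.79 and Dbp from -1.38 to -0.80. By arm, Per1 went from -1.06 to -0.55 in palbociclib, from -0.79 to -0.28 in anti-PD-1 and from -2.23 to -1.72 in combination tumors, and Per2 in palbociclib tumors from -1.18 to -0.35. Without that tumor the SE was 0.293 for Per1 in each arm and 0.449 for Per2. The differences of Per1 in anti-PD-1 and of Per2 in palbociclib tumors were then smaller than their SE.

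To ask whether the clock genes moved together among tumors given the same treatment, deviations from the arm means were correlated over the 12 tumors. This measure does not hold the differences between arms by which the genes were picked. Of 45 pairs, none passed an adjusted p of 0.05 (exact permutation test over all relabelings of tumors within arms, two-sided, smallest possible p 0.000772, Benjamini-Hochberg over 45 pairs), and 9 had an unadjusted exact p under 0.05, so the values below are given as sizes. Of the 21 pairs among the 7 repressor and output genes, 20 were positive, with a median r of 0.631. The median was 0.409 when each pair was taken without its 2 farthest tumors and 0.455 without vehicle replicate 2, and Per1 and Dbp went from 0.631 to 0.0141 without that tumor. The 2 farthest tumors were those farthest from the median deviation of 1 gene of the pair, the earlier in the opening list. Where the 2 farthest tumors were left out, here and below, the arm means of all 12 tumors were kept. The tumors left out therefore still shifted the deviations of the others in their arms. Over the 21 pairs between the 7 and the other 3, 14 were positive and the median was 0.234 (0.0119 without vehicle replicate 2). With all genes tested, the median r of each of the 9 members above the filter lay between -0.087 (Nr1d1) and 0.019 (Arntl).

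Per2 and Cry1 were the closest pair, with r = 0.962 (exact permutation p = 0.00231, adjusted p = 0.104) and Spearman's rho = 0.937 (exact permutation p = 0.00386, adjusted p = 0.174). Without the 2 tumors with the most extreme Per2 deviations, palbociclib replicate 1 and vehicle replicate 2, but with the arm means kept, r was 0.927. Without vehicle replicate 2 alone r was 0.978. Cry1 correlated positively with all 7 genes, from 0.176 with Nr1d2 to 0.962 with Per2. Per3 and Tef had r = 0.811 (exact permutation p = 0.0139, adjusted p = 0.197, rho = 0.797, exact p of rho 0.0147, adjusted p of rho 0.236), and 0.743 without the 2 farthest tumors.

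Nr1d2 had lower values. Its r with the other 6 genes ran from -0.122 with Dbp to 0.341 with Nr1d1, and the last rose to 0.893 without vehicle replicates 1 and 2. Nr1d2 and Arntl, a repressor and its target, had r = -0.478 (exact permutation p = 0.0980, adjusted p = 0.294) and rho = -0.531 (exact permutation p = 0.103, adjusted p = 0.324), and r was -0.394 without combination replicates 1 and 2. Nr1d1 and Arntl had r = 0.234 (exact permutation p = 0.621, adjusted p = 0.784) with rho = 0.035 (exact permutation p = 0.934, adjusted p = 0.978), and r was -0.435 without vehicle replicates 1 and 2, so this value rested on those tumors. Over the 7 genes, r with Arntl ranged from -0.478 to 0.460 and was negative in 3.

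**Figure D3:**
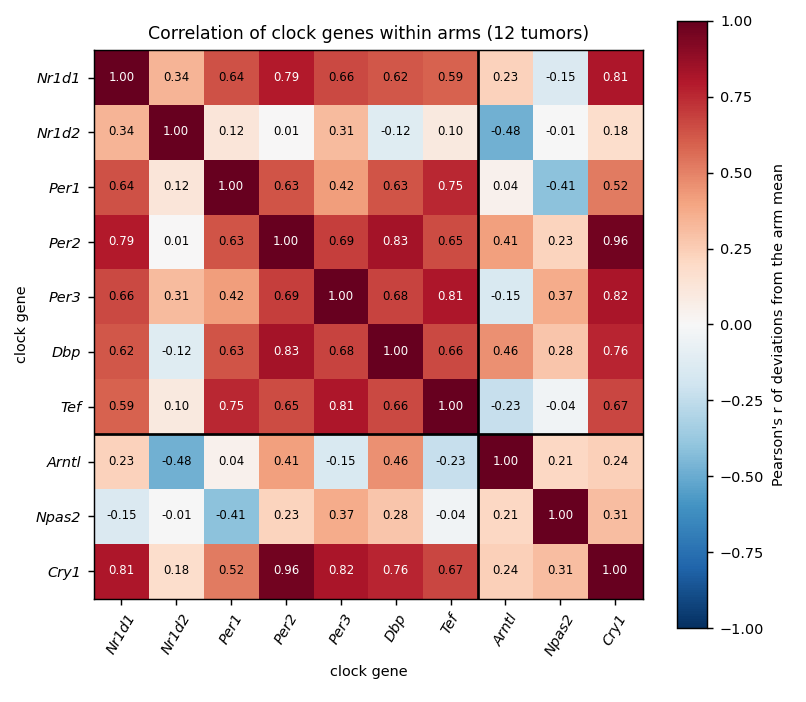
Pearson's r between clock genes (both axes) of the deviations of log2(FPKM + 0.1) from the arm mean over 12 tumors, red for positive and blue for negative, with lines between the 7 repressor and output genes and the other 3. Values among the repressor and output genes other than Nr1d2, and of these with Cry1, are positive (the median among the 7 was 0.631, and 0.455 without vehicle replicate 2), while the Arntl and Npas2 columns hold both signs.

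Of 30 further clock genes, 27 could be tested, and none was called in any of 5 contrasts (limma on log2(FPKM + 0.1), Benjamini-Hochberg over 15350 genes). The lowest adjusted p among them was 0.274 in palbociclib, 0.58 in anti-PD-1 and 0.184 in combination tumors against vehicle, 0.0894 for the palbociclib effect and 0.866 for the interaction, where 0.143%, 0.0%, 0.013%, 0.313% and 0.0% of all genes were called. Unadjusted, 5, 2, 8, 7 and 1 of the 27 had p under 0.05, as did 13.8%, 8.4%, 17.0%, 20.5% and 5.73% of all genes. The list consisted of 12 core genes (10 tested), 12 modifiers such as kinases and ubiquitin ligase subunits (12 tested) and 6 genes that cycle in most tissues (5 tested), with 0 called in each. Rorb was at 0 in every tumor, and Hlf, the third PAR bZIP gene, and Usp2 fell below the filter.

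Among the core genes, those with the largest palbociclib effects were repressors that ARNTL switches on or that oppose Dbp, and none passed. Bhlhe40 and Bhlhe41 encode DEC1 and DEC2, which compete for E-boxes, and their effects were -1.02 (SE 0.494, limma adjusted p = 0.265) and -0.68 (SE 0.281, limma adjusted p = 0.210). Nfil3, which binds the D-box as a repressor, had -0.82 (SE 0.245, limma adjusted p = 0.123), from 27.1 ± 11.7 FPKM in vehicle and 22.5 ± 7.04 in anti-PD-1 to 13.0 ± 1.97 in palbociclib and 13.5 ± 2.72 in combination tumors (SD, n = 3). Ciart, a repressor of ARNTL, had -0.48 (SE 0.305, limma adjusted p = 0.381). Clock, the partner of ARNTL, had means of 4.47 ± 0.272, 3.92 ± 0.553, 4.10 ± 0.666 and 3.84 ± 0.0498 FPKM (SD, n = 3) in vehicle, palbociclib, anti-PD-1 and combination tumors.

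Modifiers had smaller values. The effect of Csnk1e, a kinase that marks PERIOD proteins for breakdown, was -0.32 (SE 0.086, limma adjusted p = 0.102), and those of Ncor1 and Fbxw11 were -0.19 and -0.17 (limma adjusted p = 0.241 and 0.221). Of the genes that cycle in most tissues, Por, the electron donor of cytochrome P450 enzymes, had -0.40 (SE 0.1, limma adjusted p = 0.0894), Tsc22d3 -0.68 (SE 0.382), Wee1 -0.18 (SE 0.173) and Tspan4 0.09 (SE 0.134). Calls depended on single tumors here: without vehicle replicate 1, the palbociclib effect of Nfil3, Arntl2, Csnk1e and Por passed (adjusted p 0.0281, 0.0458, 0.0463 and 0.0296), all toward lower levels, and without anti-PD-1 replicate 1 Nfil3 and Por did (0.0476 and 0.0351). Calls rose over all genes in the same 2 fits, from 48 of 15350 with every tumor to 692 and 758. The added calls are therefore not particular to clock genes.

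Of 8 glucocorticoid-induced genes, none was called in the same contrasts. Their median difference from vehicle was -0.605 in palbociclib, -0.595 in anti-PD-1 and -0.822 in combination tumors. In the same order, 3, 1 and 5 of 8 had an unadjusted limma p under 0.05, as did 13.8%, 8.4% and 17.0% of all genes. Vehicle replicate 2 was the highest of the 12 tumors in 7 of the 8, and without it the medians were -0.187, -0.0766 and -0.522. For the palbociclib effect the largest values were Ddit4 at -1.13 (SE 0.497, limma adjusted p = 0.230), Dusp1 at -1.10 (SE 0.239, limma adjusted p = 0.0737), Fkbp5 at -0.83 and Klf9 at -0.64. Of 8 immediate early genes, which answer to stimulation within minutes, none was called either, with medians of -0.22, -0.293 and -0.506, and vehicle replicate 2 was the highest tumor for 1.

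**Figure D4:**
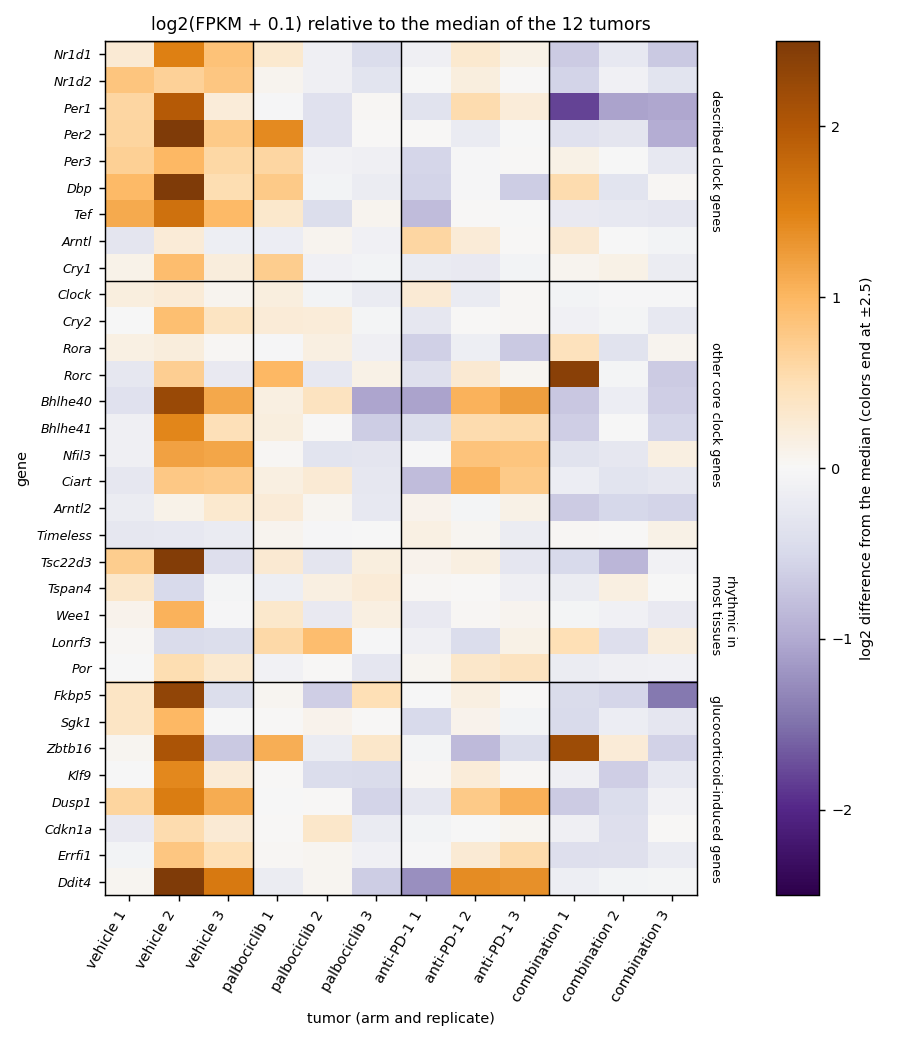
Heat map of log2(FPKM + 0.1) relative to the median of the 12 tumors (columns) for clock genes, glucocorticoid-induced genes and genes rhythmic in most tissues (rows; genes below a mean of 0.1 FPKM left out), orange above and purple below the median. The vehicle replicate 2 column is orange for most clock and glucocorticoid-induced genes, and the Per1 row is darkest purple in the 3 combination tumors.

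Across all 12 tumors, the genes whose pattern was most like that of Nr1d1 were Zfp740 (r = 0.966), Fbxo11 (0.956), Lrig2 (0.955), Eef2k (0.953) and Gadd45b (0.943), and the least like were Med11 (-0.951), Fbxo5 (-0.944), Ap4s1 (-0.930), Ankrd9 (-0.928) and Ormdl2 (-0.923). Among the genes most like Dbp were Syap1 (0.957), Stau1 (0.951), Fam160a1 (0.924) and Spsb1 (0.918). Arntl was most like Ddx47 (0.859), Gm9830 (0.821), Plek2 (0.815), Sdha (0.793) and Xab2 (0.783). These are Pearson's r over 12 tumors among genes with a mean of at least 1 FPKM, clock members left out, and the tumors share arms, depth and tissue content. No gene of the clock lists was among those named here.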

How the data were processed

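For each of 12 LLC1-shLkb1 tumors the authors supplied a deposited file of 34745 rows, whose values are in FPKM. Their processing notes name HISAT2 and GRCm38 (mm10). The counting tool, annotation and strand setting are not given in the sources used here, and no further scaling between tumors is stated. For each of 67 repeated symbols the entry with the highest mean was kept, and 32724 of 34678 symbols were found in GENCODE M21.

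The 10 genes and the gene lists were chosen with earlier results of these data known. Genes with a mean of at least 0.1 FPKM (15350) entered limma 3.58.1 in R 4.3.3 on log2(FPKM + 0.1), with 1 mean per arm over all 12 tumors, eBayes with a trend and Benjamini-Hochberg adjustment over all genes at a threshold of 0.05. A fold change on this scale understates that of low genes. The files hold no counts, so the count behind a value is an estimate from the steps between low FPKM values (14900000 to 20300000 fragments per tumor), and no interval is given. The study's methods call its sample sizes biological replicates in general terms. Named genes were the 10 members, Stk11 and, in each other list, the up to 4 genes with the largest palbociclib effect among those with a mean of at least 1 FPKM, plus the 5 genes most like Nr1d1, Dbp and Arntl (and 5 least like Nr1d1), of which some items are not reported here. Genes beyond this rule (Clock, Arntl2, Errfi1, Rorb, Hlf, Usp2, Thra, Sphk2 and the lung markers at 0) were named after their values were seen. The labels give no batch. Same-numbered vehicle and anti-PD-1 tumors deviated together from their arm means over all genes (r = 0.453, 0.128 and 0.247 for the 3 pairs). This was seen in the data and no label pairs the tumors, so whether the numbers pair them is not known. The differences and standard errors above come from the fit without pairing. With the replicate number as a block, anti-PD-1 against vehicle had 0 genes called, as without it. Correlations within arms used an exact permutation test (scipy 1.17.1). Marker lists for adipocytes, skeletal muscle, skin, leukocytes, endothelium, proliferation and lung adenocarcinoma had 0 genes called for the palbociclib effect, with medians of 3.31, 1.47, 1.46, 0.734, -0.594, 0.308 and 0.0585 (log2). Both statistics were tested on simulated data. Alternatives were another pseudocount (0.01 or 1), filter, scaling or variance model, tissue marker covariates, the replicate number as a block and leaving out each tumor.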

Additional observations from a re-analysis of the deposited data

How the results depend on the processing

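Of 615 values recomputed under an alternative, 602 moved by less than the spread between tumors and 13 by more. Signs changed in 8, namely 5 values of the palbociclib effect of Cry1 (-0.167 to 0.0976 in all) and 3 medians over Arntl, Npas2 and Cry1 (0.0311 for the palbociclib effect and 0.0827 for treated minus vehicle without vehicle replicate 2, and one below). Without each tumor in turn, the number of other clock genes called for the palbociclib effect ran from 0 to 4 (4 without vehicle replicate 1 and 2 without anti-PD-1 replicate 1), the median of the treated arms minus vehicle over the 7 repressor and output genes from -1.58 to -0.796 (without vehicle replicate 2), and genes lying wholly below vehicle from 2 to 5 for all treated tumors (5 without vehicle replicate 3, 4 without palbociclib replicate 1, where 3.84% and 1.78% of all genes did so) and from 3 to 8 for palbociclib (5 without vehicle replicate 3, 8 without palbociclib replicate 1, against 10.4% and 11.5%). With no filter, Npas2 entered and the median of treated minus vehicle over Arntl, Npas2 and Cry1 went from -0.124 to 0.159, the value of Arntl. Under quantile normalization 1 pair of members passed within arms in place of 0. With a pseudocount of 1 the treated minus vehicle differences of Per3, Dbp and Tef shrank to -0.438, -0.676 and -1.03. Over all genes the palbociclib effect had 48 calls, with 0 without the trend or with tissue covariates, 11 with no filter, 129 with the replicate block and 0 to 758 without single tumors, and palbociclib against vehicle had 22 calls, with 1 under quantile normalization, 6 without the trend, 3 with tissue covariates, 51 with the block and 1 to 46 without single tumors. For the palbociclib effect, 692 genes were called without vehicle replicate 1 and 758 without anti-PD-1 replicate 1. Across the arms, replicate numbers did not pair the tumors throughout: deviations of same-numbered tumors correlated from -0.213 to 0.453, 7 of 18 pairs were over 0.1, and 5 of 12 tumors were closest to their own number. With the replicate block the other clock genes called stayed at 0 in every contrast, the median palbociclib effect of the 7 genes stayed at -0.647, and 0 pairs of members passed. Low depth limits Dbp, Per2 and Npas2 most.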

Other observations

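Several other repressors of the clock shared the same 4 highest tumors, in differing order, which was not seen in the 9 members tested. Bhlhe40 stood at 40.6 and 19.0 FPKM in vehicle replicates 2 and 3 and at 17.6 and 20.0 in anti-PD-1 replicates 2 and 3, and at 4.01 to 11.4 in the other 8 tumors. Nfil3 was at 34.3, 33.3, 26.6 and 26.5 FPKM in those 4 tumors and at 16.6 or less in the others, and Ciart at 3.77, 3.66, 4.52 and 3.71 against 2.59 or less. Bhlhe41 was at 10.2, 5.14, 5.38 and 5.45 FPKM in the same 4 tumors and at 4.17 or less in the others. These 4 tumors were the 4 highest in 4 of 10 other core clock genes, in Csnk1e among 12 modifiers, in Por among 5 genes that cycle in most tissues, and in 4 of 8 glucocorticoid-induced genes (Klf9, Dusp1, Errfi1 and Ddit4), but in 0 of the 9 members tested and 0 of 8 immediate early genes. Over all genes tested the share was 3.11%. The 4 tumors were singled out after the values of these genes were seen, so nothing is read from the counts. None of the 4 tumors had received palbociclib, while vehicle replicate 1 and anti-PD-1 replicate 1, which had not either, lay with the palbociclib-treated tumors. Same-numbered vehicle and anti-PD-1 tumors also deviated together over all genes (r = 0.453, 0.128 and 0.247), and muscle markers summed to 65.8 and 12 FPKM in replicate 1 of these arms and to 0.745 to 1.26 in replicates 2 and 3. In replicates 1, 2 and 3 they summed to 1.54, 7.35 and 191 FPKM in palbociclib and 0.937, 177 and 7.18 in combination tumors. The pattern was noticed in the values and its cause was not tested.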
